A study of Caenorhabditis elegans with 12 samples.

Results

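Synaptic and pan-neuronal genes of Caenorhabditis elegans were examined in RNA from whole L4 larvae to ask whether transcripts of neurons were higher in general when the coactivator CRTC-1, the kinase AAK-2 or both were made constitutively active. The set was chosen by function, with earlier results of these data known. It holds 40 named genes of transmitter synthesis and uptake, vesicle release, dense-core vesicles, axonal transport, channels, G-protein signalling and sensory neurons. Of these, 38 were found among the 14505 genes measured. unc-17 and cha-1, which share their first exon, carried 1 sequence name and identical values, so the 38 genes give 37 measurements. tax-2 and tax-4 were not analysed here.

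The wild type N2 was compared with 3 transgenic strains, each with 3 biological replicates by the series text, all grown at 20 °C on OP50-1 bacteria and collected at L4. WBM55 carries CRTC-1 with the changes S76A and S179A and is called CA-CRTC-1. WBM60 carries constitutively active AAK-2 and is called CA-AAK-2. WBM66 carries both transgenes (CA-AAK-2;CA-CRTC-1) and is called the double strain. The labels name 1 line for each genotype, and the promoters that drive the transgenes are not given in the sources used here. In RNA from whole animals a lower share of neurons and less RNA per neuron cannot be told apart.

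Neurons release classical transmitters from small synaptic vesicles, which fuse through a SNARE complex held ready by proteins such as UNC-13 and UNC-18. Neuropeptides travel instead in dense-core vesicles, where precursor proteins are cut by proprotein convertases and trimmed by carboxypeptidases before release. Heterotrimeric G proteins set how readily both kinds of vesicle fuse, with the Gq protein EGL-30 driving release and the Go protein GOA-1 holding it back. CRTC-1 is a coactivator of CREB that AMP-activated protein kinase, of which AAK-2 is a catalytic subunit, keeps inactive by phosphorylation.

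Values are CPM, read counts scaled to library size after the authors' normalisation, from 30887631 to 48989013 counted reads per library. The labels were checked on the transgenes: aak-2 lay at 57.2 to 67.9 CPM in N2 and at 2440 to 3270 CPM in the 6 libraries with CA-AAK-2, and crtc-1 at 18.3 to 23.4 CPM in N2, 177 to 207 CPM in CA-CRTC-1 and 350 to 379 CPM in the double strain. Differences are log2 ratios of CPM plus 0.5 with their standard error from limma. A gene was tested when its mean was at least 5 CPM over the libraries compared, and it was called when the Benjamini-Hochberg adjusted p over all genes tested was at most 0.01 and the change was at least 1.5-fold (0.585 on the log2 scale). Called members are said to have risen, and values alone are given for the others. Groups were said to overlap unless every library of one lay above every library of the other.

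In N2 the members differed widely in level. Per kilobase of annotated exon, snb-1, the vesicle SNARE synaptobrevin, stood highest at 113.5 ± 10.7 CPM per kb (mean ± SD, n = 3). goa-1 followed at 69.1 ± 0.75 CPM per kb, egl-30 at 44.0 ± 1.21 CPM per kb, and the carboxypeptidase gene egl-21 at 43.6 ± 1.38 CPM per kb. The proprotein convertase gene egl-3 lay at 34.9 ± 1.09 CPM per kb, so that the enzymes of peptide processing were among the most abundant members. At the low end stood the vesicular GABA transporter unc-47 (1.05 ± 0.04 CPM per kb), its partner unc-46 (0.82 ± 0.13), the sensory channel osm-9 (0.54 ± 0.04), the serotonin transporter mod-5 (0.49 ± 0.05) and the intraflagellar transport gene osm-6 (0.45 ± 0.09 CPM per kb). Of the 36 pairs of neighbours in this order, 17 overlapped between their N2 libraries, among them egl-30 and egl-21, snt-1 and rab-3, and mod-5 and osm-6.

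The strains differed by little in most members. For the 29 members whose 12 libraries averaged 5 CPM or more, the highest strain mean was 1.06 to 1.73 times the lowest, with a median of 1.3 times. The double strain was highest for 13 of the 29, CA-CRTC-1 for 11, N2 for 5 and CA-AAK-2 for 0, and CA-AAK-2 was lowest for 16. Summed over all members, the level was 1425 to 1463 CPM in the N2 libraries, 1511 to 1623 CPM in CA-CRTC-1, 1355 to 1387 CPM in CA-AAK-2 and 1537 to 1647 CPM in the double strain. As deposited, the 2 strains with CA-CRTC-1 were therefore above N2 in every library and CA-AAK-2 was below it in every library. The order of the strains with CA-CRTC-1 and N2 depended on scaling. Factors from the median ratio over genes were 0.91 to 0.96 in N2 and 0.98 to 1.09 in these strains. Divided by the factors, the sums of CA-CRTC-1 overlapped N2, and those of the double strain and CA-AAK-2 lay below it. Abundant genes weigh most in this sum. The 5 dense-core vesicle genes together summed to 241 to 250 CPM in N2, 314 to 343 CPM in CA-CRTC-1, 253 to 269 CPM in CA-AAK-2 and 362 to 433 CPM in the double strain. As deposited, they were thus above N2 in CA-AAK-2 while the sum over all members was below it. Divided by the same factors, the dense-core sums of CA-AAK-2 and N2 overlapped, while those of the 2 strains with CA-CRTC-1 stayed above N2.

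**Figure D1:**
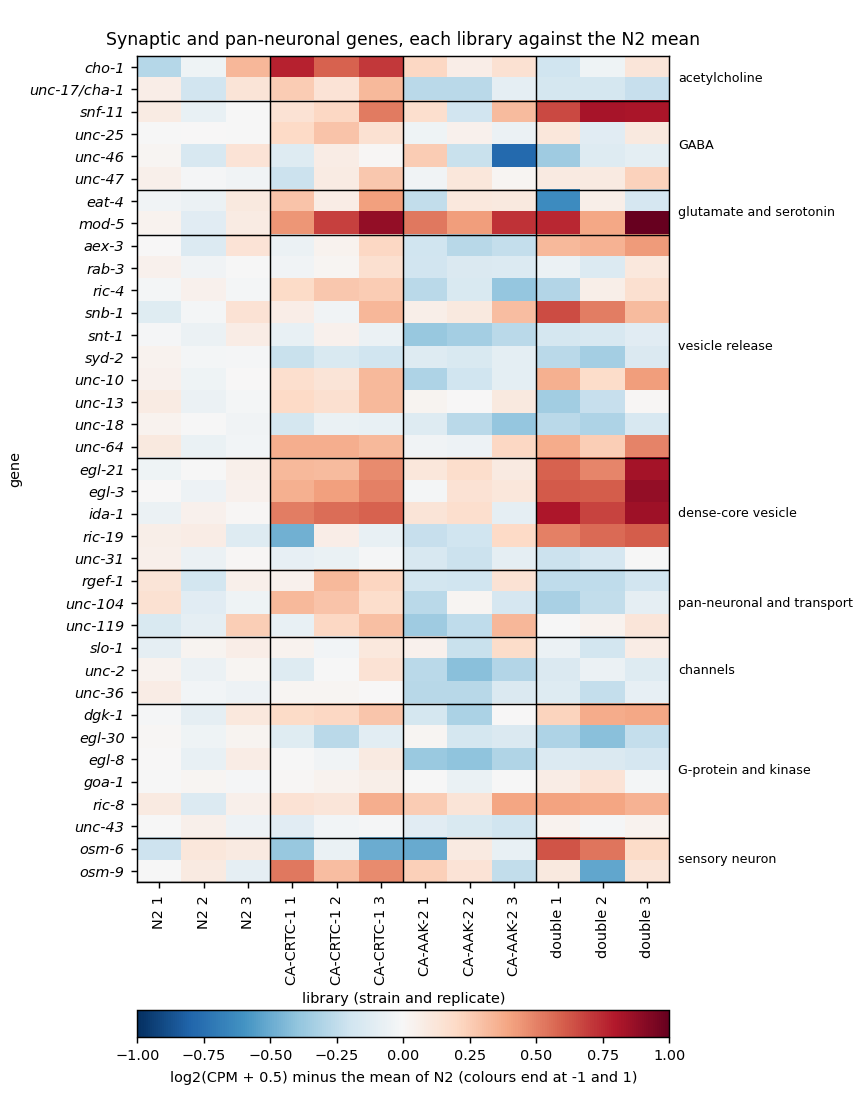
Each row is a gene and each column a library, with colour giving log2(CPM + 0.5) minus the mean of the 3 N2 libraries. Rows of ida-1, egl-3, egl-21 and snf-11 are the darkest red in the double strain among genes past 5 CPM, while most rows of vesicle release, channels and G-protein signalling stay pale.

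CA-CRTC-1 against N2 asks whether the altered coactivator raised neuronal transcripts with the animals' own AMPK. None of the 30 members tested was called higher or lower, where 8.79% of all genes tested were called, 6.62% higher and 2.17% lower. An unadjusted limma p under 0.05 was reached by 14 members. With no fold threshold and an adjusted p of at most 0.05, 4 members were higher (ida-1, egl-3, egl-21 and unc-64) and 1 lower (syd-2), where 19% of all genes were higher and 7.61% lower, 26.6% together. The libraries of CA-CRTC-1 lay wholly above N2 for 13 members and wholly below for 3, against 34% and 15.2% of all genes. The median difference of the members was 0.13 and that of all genes tested 0.07, and 23 of the 30 members (76.7%) were above 0 against 63.5% of all genes. For 28 of the 30, the 95% interval of the difference lay wholly inside 1.5-fold in both directions, so a rise of that size was outside the interval for all but ida-1 and egl-3. These 2 genes and egl-21 had the largest differences, which are given below with their values.

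CA-AAK-2 against N2 asks the same of the active kinase. Of 29 members tested, 0 were called in either direction, where 12.6% of all genes were called, 8.2% higher and 4.4% lower, and 9 members had an unadjusted limma p under 0.05. The members leaned downwards while the genes at large did not: their median was -0.12 against 0.11 for all genes tested, and 8 of 29 (27.6%) were above 0 against 63.7% of all genes. With no fold threshold and an adjusted p of at most 0.05, 7 members were lower (egl-8, unc-36, unc-18, snt-1, unc-43, unc-2 and ric-4) and 1 higher (ric-8), where 14.8% of all genes were lower and 33.7% higher, 48.5% together. The libraries lay wholly below N2 for 12 members and wholly above for 2, against 18.7% and 38.8% of all genes. The 95% intervals of all 29 lay inside 1.5-fold. The largest differences were those of egl-8 (-0.36 ± 0.06, limma adjusted p = 0.000365), snt-1 (-0.33 ± 0.08, adjusted p = 0.00397) and unc-2 (-0.33 ± 0.08, adjusted p = 0.00428), none of which reached 1.5-fold.

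The double strain against N2 gave 4 members called higher of 29 tested and 0 called lower, where 22.5% of all genes tested were called, 15.6% higher and 6.87% lower. The 4 of 29 are close to that share. The genes that rose were ida-1, egl-3, egl-21 and snf-11. The other 25 ranged from -0.32 to 0.56. The median of the members was 0.02 and that of all genes 0.14, and 15 of 29 members (51.7%) were above 0 against 62.6% of all genes. With no fold threshold and an adjusted p of at most 0.05, 11 members were higher and 3 lower (egl-30, syd-2 and unc-18), where 40.9% of all genes were higher and 19.2% lower, 60% together. The libraries lay wholly above N2 for 11 members and wholly below for 7, against 44.7% and 21.6% of all genes. The 95% interval lay inside 1.5-fold for 22 of the 29.

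Scaling moved all genes together. With libraries rescaled by the median ratio over genes, the median of all genes tested was lower by 0.10, 0.12 and 0.17 in the 3 comparisons with N2, and the share of all genes called higher and lower became 5.43% and 3.38% (8.81% together) for CA-CRTC-1, 4.97% and 6.73% for CA-AAK-2, and 10.1% and 10.9% for the double strain. Members called under that scaling numbered 0, 0 and 2. The median of the members relative to all genes hardly depended on this: it was 0.06 above all genes in CA-CRTC-1 (0.06 with the median ratio), 0.23 below in CA-AAK-2 (0.22 below) and 0.12 below in the double strain (0.12 below).

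**Figure D2:**
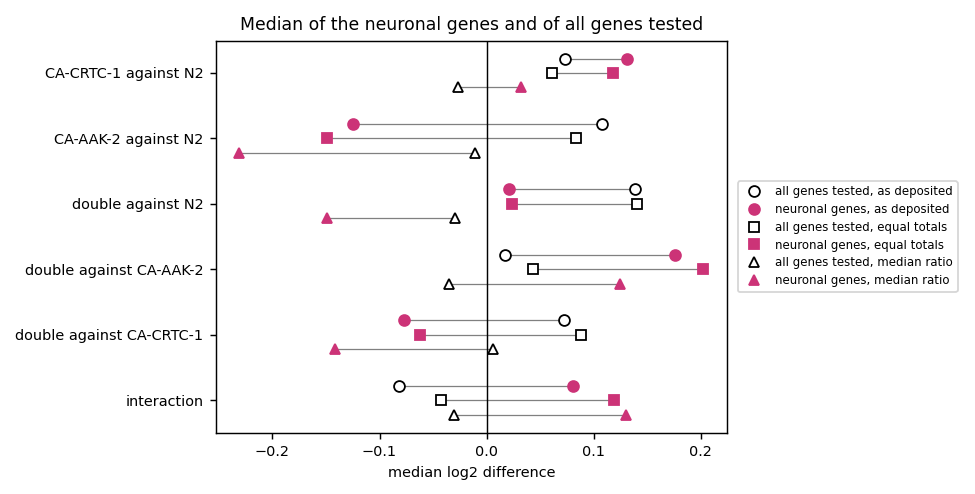
The median log2 difference of the neuronal genes (filled) and of all genes tested (open) in 6 comparisons, with values as deposited (circles), rescaled to equal totals (squares) or by the median ratio (triangles). The filled mark lies left of the open one in CA-AAK-2 against N2, the double strain against N2 and the double strain against CA-CRTC-1, and right of it in the other 3, under each of these scalings.

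Dense-core vesicle genes held 3 of the 4 rises in the double strain. ida-1 encodes a receptor-like protein tyrosine phosphatase homologue of the dense-core vesicle membrane, related to the mammalian islet antigen IA-2. It lay at 61.46, 66.21 and 64.71 CPM in N2, at 91.59, 94.54 and 96.55 CPM in CA-CRTC-1, at 70.04, 72.04 and 60.33 CPM in CA-AAK-2, and at 112.5, 102.6 and 115.5 CPM in the double strain. Both strains with CA-CRTC-1 stood above N2 and CA-AAK-2 in every library, and the double strain above CA-CRTC-1 in every library, while N2 and CA-AAK-2 overlapped. The difference from N2 was 0.78 ± 0.08 in the double strain (limma adjusted p = 1.05e-06) and 0.55 ± 0.08 in CA-CRTC-1 (adjusted p = 7.77e-05, 1.47-fold and so not called). In CA-AAK-2 it was 0.07 ± 0.08 (adjusted p = 0.474). The call in the double strain held in all 16 alternative settings run for it.

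egl-3, the proprotein convertase that cuts most neuropeptide precursors in the worm, measured 89.9, 86.7 and 92.3 CPM in N2, 114.8, 119.5 and 127.1 CPM in CA-CRTC-1, 88.4, 99.1 and 97.1 CPM in CA-AAK-2, and 137.6, 136.4 and 165.4 CPM in the double strain. The order of the strains was that of ida-1, again with N2 and CA-AAK-2 overlapping and replicate 3 the highest of the double strain. egl-3 rose by 0.70 ± 0.08 in the double strain (limma adjusted p = 4.41e-06). With median-ratio scaling or with edgeR on the recovered reads the rise was 0.53 or 0.56 and fell short of 1.5-fold. In CA-CRTC-1 the difference was 0.42 ± 0.08 (adjusted p = 0.00121).

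egl-21, the carboxypeptidase that trims the cut peptides, measured 71.8, 73.6 and 76.5 CPM in N2, 92.5, 92.4 and 102.7 CPM in CA-CRTC-1, 80.1, 83.6 and 78.8 CPM in CA-AAK-2, and 111.6, 104.03 and 132.0 CPM in the double strain. No library of any transgenic strain overlapped N2. egl-21 rose by 0.64 ± 0.08 in the double strain (limma adjusted p = 1.37e-05), a call that was lost with median-ratio scaling (0.47), with edgeR (0.50) and without replicate 3 of the double strain (0.54). The difference was 0.37 ± 0.08 in CA-CRTC-1 (adjusted p = 0.00399) and 0.13 ± 0.08 in CA-AAK-2 (adjusted p = 0.219).

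The other 2 dense-core vesicle members had other patterns. ric-19, the homologue of the islet autoantigen ICA69 and a partner of RAB-2 in making these vesicles, was low at 161 to 410 reads per library. It lay at 5.74, 5.78 and 4.96 CPM in N2, 3.79, 5.76 and 5.19 CPM in CA-CRTC-1, 4.597, 4.708 and 6.356 CPM in CA-AAK-2, and 7.98, 8.33 and 8.58 CPM in the double strain. Only the double strain stood apart, above all 9 other libraries, and its difference from N2 was 0.56 ± 0.15 (limma adjusted p = 0.00563), just short of 1.5-fold. unc-31, the CAPS homologue needed for dense-core vesicle fusion, was near 11 CPM throughout, with 11.005 to 11.93 CPM in N2, 10.8 to 11.4 CPM in CA-CRTC-1, 9.81 to 10.8 CPM in CA-AAK-2 and 9.83 to 11.5 CPM in the double strain. Its difference from N2 was -0.13 ± 0.09 in the double strain (adjusted p = 0.241), with a 95% interval of -0.33 to 0.07.

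**Figure D3:**
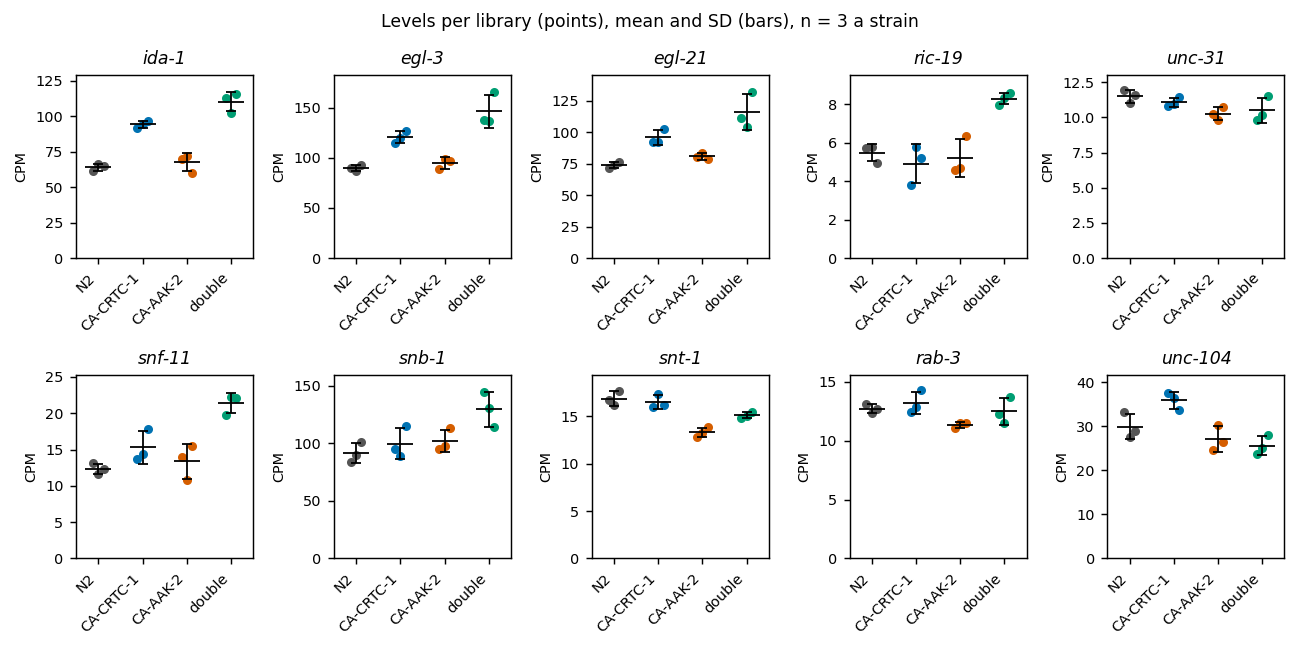
CPM of 10 genes in each library (points) with the mean and SD of 3 libraries (bars) for the 4 strains; each axis starts at 0. ida-1, egl-3 and egl-21 step up from N2 to CA-CRTC-1 and again to the double strain, and ric-19 and snf-11 are highest in the double strain.

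Further genes of the same organelle, from a list of 16 outside the set, were called higher for 3 of 16 tested in CA-CRTC-1, 0 of 15 in CA-AAK-2 and 4 of 16 in the double strain, with 0 called lower in each, where 6.62%, 8.2% and 15.6% of all genes were called higher. The medians were 0.25, 0.11 and 0.27, against 0.07, 0.11 and 0.14 for all genes tested. In the double strain the genes that rose were aex-5, a proprotein convertase known from the defecation cycle (1.03 ± 0.10), the peptide-amidating enzyme pghm-1 (0.83 ± 0.09), sbt-1, the 7B2-like chaperone of EGL-3 (0.68 ± 0.09), and the carboxypeptidase D homologue cpd-1 (0.59 ± 0.13). pghm-1 went from 26.2 to 28.5 CPM in N2 to 45.6 to 52.2 CPM in the double strain, and sbt-1 from 38.6 to 40.9 CPM to 57.7 to 73.6 CPM, with no overlap in either gene. In CA-CRTC-1, aex-5 (0.80 ± 0.10), cpd-1 (0.91 ± 0.13) and the amidating enzyme pamn-1 (0.67 ± 0.10) rose. aex-5 overlaps its neighbours by 181 bases of exon, so part of its reads may belong to them. With median-ratio scaling the counts were 2 of 16 in CA-CRTC-1 and 2 of 16 in the double strain, where 5.43% and 10.1% of all genes were called higher. The count in the double strain is then close to the share of all genes. The list was chosen with earlier results of these data known, so it is no independent check of the set. In the double strain, cpd-1 was called in 11 of 16 settings and sbt-1 in 13 of 16. In CA-CRTC-1, aex-5 and cpd-1 were called in all 16 and pamn-1 in 15, its call being lost with median-ratio scaling. The 12 genes of this list not called in the double strain ranged from hid-1, which acts in dense-core vesicle cargo retention (-0.40 ± 0.08), to the carboxypeptidase gene cpd-2 (0.50 ± 0.10), both named as the ends of that range after their values were seen.

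**Figure D4:**
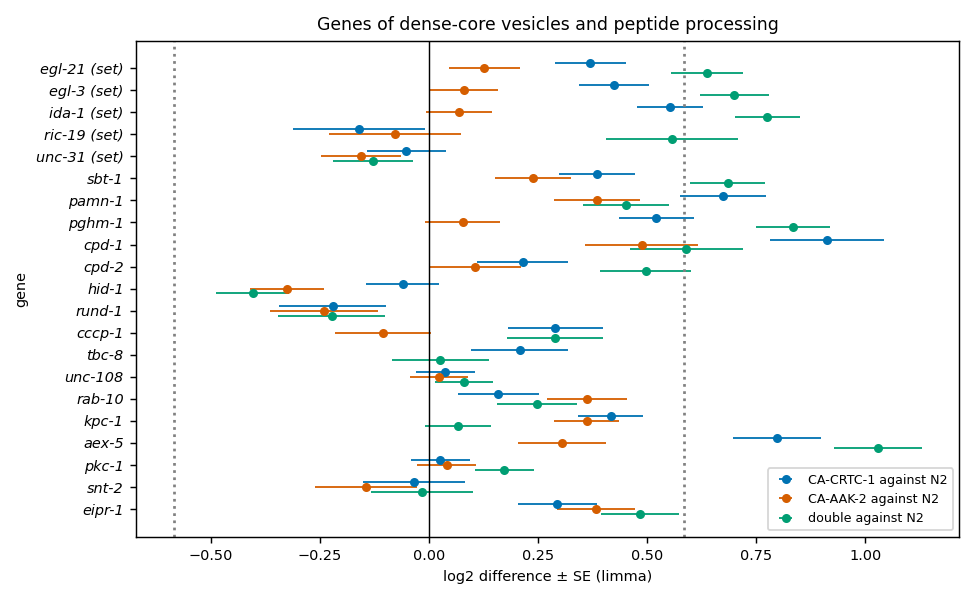
Log2 difference from N2 with its standard error for 5 genes of the set (marked) and 16 further genes of dense-core vesicles and peptide processing; the dotted lines are 1.5-fold, and tbc-8 has no CA-AAK-2 value because it was under the filter there. In the double strain egl-21, egl-3, ida-1, sbt-1, pghm-1, cpd-1 and aex-5 pass the right-hand line and the other 14 genes do not, among them the processing enzymes pamn-1, cpd-2 and kpc-1.

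Genes of synaptic vesicle release were not called in any comparison with N2. The 10 members tested had a median of 0.09 in CA-CRTC-1, -0.18 in CA-AAK-2 and -0.03 in the double strain. snb-1 had the largest difference among them, at 83.8, 90.1 and 101 CPM in N2, 95.4, 88.9 and 115 CPM in CA-CRTC-1, 95.2, 97.9 and 113 CPM in CA-AAK-2, and 144, 130 and 114 CPM in the double strain. Only the double strain cleared N2, by 0.49 ± 0.11 (limma adjusted p = 0.00147, 1.41-fold). Of the genes that meet snb-1 in the SNARE complex, the syntaxin unc-64 differed from N2 by 0.35 ± 0.09 in CA-CRTC-1 (adjusted p = 0.0101), by 0.04 ± 0.09 in CA-AAK-2 and by 0.37 ± 0.09 in the double strain (adjusted p = 0.00243). The SNAP-25 homologue ric-4 differed by 0.24 ± 0.11, -0.27 ± 0.11 and -0.02 ± 0.11 in the same order. ric-4 was thus highest in CA-CRTC-1, and snb-1 and unc-64 in the double strain.

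The regulators of fusion divided in the double strain. aex-3, the exchange factor of the vesicle GTPase RAB-3, lay at 12.97 to 15.8 CPM in N2, 13.7 to 16.6 CPM in CA-CRTC-1, 11.8 to 12.4 CPM in CA-AAK-2 and 18.1 to 19.4 CPM in the double strain, which was above all other libraries (0.37 ± 0.10 from N2, limma adjusted p = 0.00481). unc-10, the RIM scaffold of the active zone, had 10.4 to 11.04, 11.8 to 13.6, 8.54 to 9.98 and 12.3 to 14.5 CPM in that order. unc-18 lay at 73.6 to 77.1 CPM in N2, 66.7 to 71.8 CPM in CA-CRTC-1, 57.6 to 68.9 CPM in CA-AAK-2 and 60.8 to 67.5 CPM in the double strain. syd-2, the liprin that lays out the active zone, had 46.8 to 48.7, 40.7 to 42.6, 42.7 to 44.4 and 37.4 to 42.9 CPM. Both unc-18 and syd-2 were thus below N2 in every library of the 3 transgenic strains, with differences of -0.10 to -0.26 that stayed under 1.5-fold.

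The synaptic vesicle genes rab-3 and snt-1 and the priming factor unc-13 were not called against N2. rab-3 lay at 12.4 to 13.1 CPM in N2, 12.4 to 14.3 CPM in CA-CRTC-1, 11.1 to 11.5 CPM in CA-AAK-2 and 11.5 to 13.7 CPM in the double strain, a difference of -0.03 ± 0.09 in the last (95% interval -0.23 to 0.17). Its CA-AAK-2 libraries were all below N2 (-0.16 ± 0.09, limma adjusted p = 0.176). snt-1, the calcium sensor synaptotagmin, had 16.2 to 17.7 CPM in N2, 15.97 to 17.3 CPM in CA-CRTC-1, 12.9 to 13.9 CPM in CA-AAK-2 and 14.8 to 15.5 CPM in the double strain. It was thus lowest in CA-AAK-2, below N2 in each library of both strains with that transgene. unc-13, the priming factor, measured 53.6 to 59.3 CPM in N2, 62.6 to 70.3 CPM in CA-CRTC-1, 56.2 to 60.05 CPM in CA-AAK-2 and 43.9 to 56.5 CPM in the double strain. A list of 24 further measured release genes gave 0 calls in either direction in the 3 comparisons with N2 (20, 18 and 19 tested), with medians of 0.14, 0.07 and 0.16.

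Pan-neuronal and transport genes gave no call against N2. unc-104, the kinesin that carries synaptic vesicle precursors, lay at 27.6 to 33.1 CPM in N2, 33.7 to 37.5 CPM in CA-CRTC-1, 24.6 to 30.2 CPM in CA-AAK-2 and 23.8 to 28.0 CPM in the double strain. CA-CRTC-1 was above N2 in every library, and the double strain overlapped N2. unc-119, a trafficking factor for lipid-modified proteins whose promoter is used to mark all neurons, had 5.16 to 6.97 CPM in N2 and 5.79 to 6.36 CPM in the double strain (0.05 ± 0.17, limma adjusted p = 0.817). rgef-1, a Ras exchange factor whose promoter serves the same purpose, was near the filter, with 4.37 to 5.54 CPM in N2, 5.18 to 6.41 CPM in CA-CRTC-1, 4.30 to 5.60 CPM in CA-AAK-2 and 4.12 to 4.33 CPM in the double strain, where every library was below N2.

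Transmitter genes held the fourth rise. snf-11, the plasma membrane GABA transporter, which is made in GABA neurons and also in muscle, measured 13.1, 11.68 and 12.3 CPM in N2, 13.7, 14.3 and 17.9 CPM in CA-CRTC-1, 13.9, 10.8 and 15.5 CPM in CA-AAK-2, and 19.8, 22.3 and 22.1 CPM in the double strain. The double strain lay above all 9 other libraries. snf-11 rose by 0.77 ± 0.13 over N2 (limma adjusted p = 0.000166), a call that held in all 16 settings run, and differed by 0.29 ± 0.13 in CA-CRTC-1 (adjusted p = 0.118) and 0.10 ± 0.13 in CA-AAK-2 (adjusted p = 0.563). The GABA synthesis enzyme unc-25 lay at 21.6 to 21.8 CPM in N2 and 20.0 to 23.5 CPM in the double strain (0.03 ± 0.08, adjusted p = 0.747), and the vesicular transporter unc-47 stayed at 1.34 to 2.08 CPM in all 12 libraries. snf-11 was therefore the 1 GABA gene called of 2 tested, as unc-46 and unc-47 were under the filter. The acetylcholine locus unc-17 with cha-1, the vesicular transporter and the synthesis enzyme, had 9.86 to 12.45 CPM in N2, 12.5 to 14.3 CPM in CA-CRTC-1, 9.31 to 10.6 CPM in CA-AAK-2 and 9.60 to 10.0 CPM in the double strain (-0.19 ± 0.11, adjusted p = 0.126).

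Channels for calcium and potassium at the terminal did not rise. unc-2, the presynaptic calcium channel, lay at 32.3 to 34.5 CPM in N2, 30.7 to 37.3 CPM in CA-CRTC-1, 25.04 to 27.7 CPM in CA-AAK-2 and 30.4 to 32.2 CPM in the double strain. Its auxiliary subunit unc-36 had 23.2 to 25.3, 24.1 to 24.4, 19.7 to 21.7 and 20.2 to 22.6 CPM. Both were below N2 in every library of CA-AAK-2 and of the double strain. slo-1, the calcium-activated potassium channel, overlapped N2 in all 3 strains and differed by -0.05 ± 0.11 in the double strain (limma adjusted p = 0.675).

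G-protein genes, several of which also work outside neurons, were not called either. goa-1 stayed within 133 to 153 CPM in all 12 libraries, with differences from N2 of -0.03 to 0.06 and standard errors of 0.06. egl-30 lay at 168 to 177 CPM in N2 and 129 to 147 CPM in the double strain, where it was below N2 in every library (-0.32 ± 0.07, limma adjusted p = 0.00164). Its effector egl-8, a phospholipase C, was lowest in CA-AAK-2, at 77.9 to 83.6 CPM against 98.1 to 109 CPM in N2 and 91.9 to 93.9 CPM in the double strain. ric-8, which acts on G-protein alpha subunits, had 16.3 to 19.1 CPM in N2 and 23.1 to 23.9 CPM in the double strain (0.38 ± 0.10, adjusted p = 0.00338). The diacylglycerol kinase dgk-1 went from 11.005 to 12.6 CPM to 13.8 to 15.5 CPM (0.33 ± 0.10, adjusted p = 0.0114), and the calcium and calmodulin dependent kinase unc-43 from 195 to 210 CPM to 200 to 208 CPM (0.02 ± 0.06, adjusted p = 0.769). egl-30 shares 93 bases of exon with a neighbour, and 11 members besides unc-17 and cha-1 overlap another gene on their exons, none of them among the 6 called in any comparison.

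**Figure D5:**
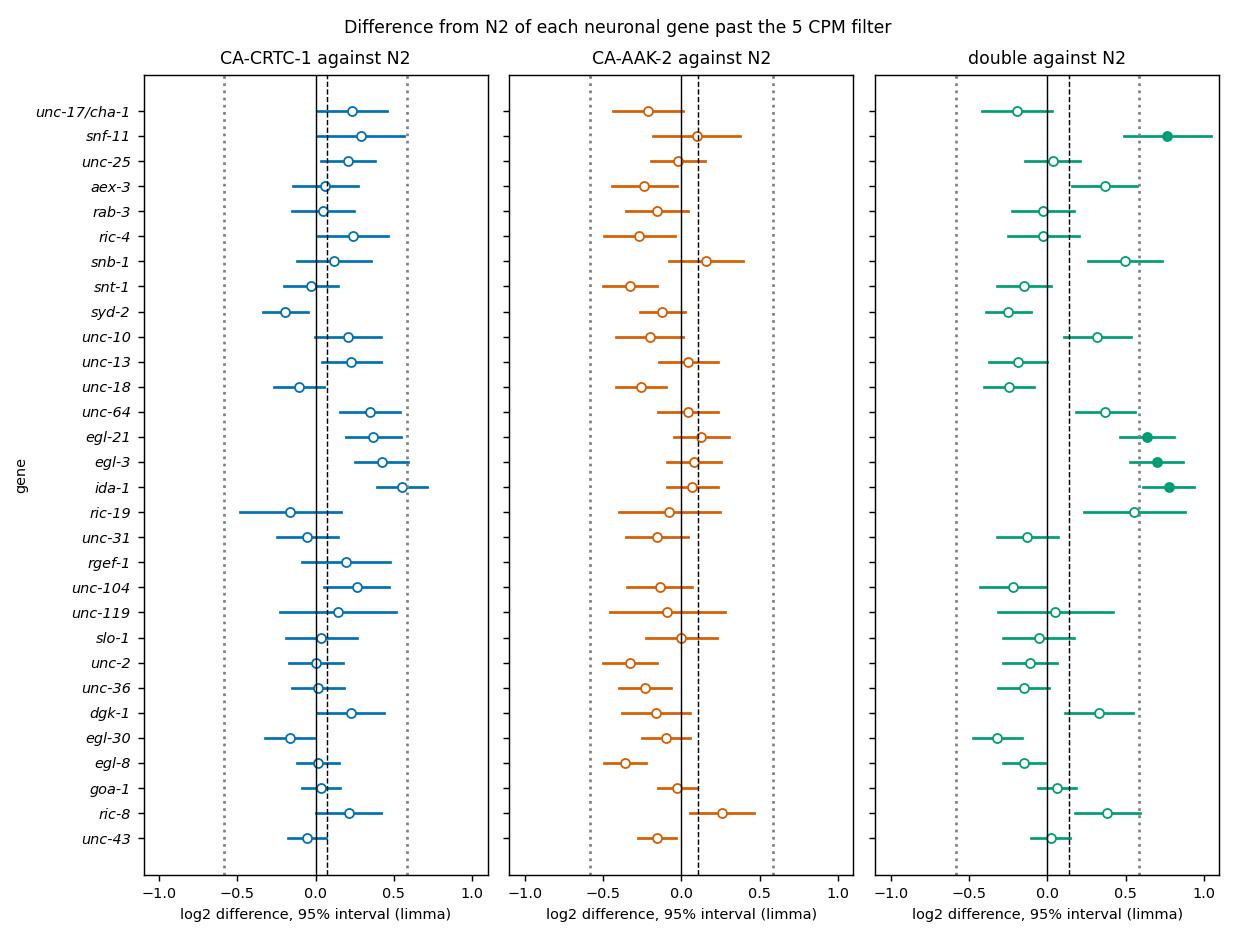
Log2 difference from N2 with its 95% interval for each gene past the filter, in order of role; the solid line is 0, the dashed line the median of all genes tested, the dotted lines 1.5-fold, and filled points are called. Filled points appear only in the double strain, for snf-11, egl-21, egl-3 and ida-1, and most CA-AAK-2 points lie left of the dashed line.

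Members under the filter were unc-46, unc-47, cho-1, eat-4, mod-5, osm-6 and osm-9, with rgef-1 also under it in 4 of the 6 comparisons. They are thin: osm-6 and unc-46 had as few as 14 and 13 reads in a library. Tested with no filter on level, 1 was called higher in CA-CRTC-1, where 9.42% of all genes were, and 1 in the double strain, where 18.7% were. cho-1, the choline transporter, had 2.77 to 4.51 CPM in N2, 5.49 to 6.29 CPM in CA-CRTC-1, 3.67 to 4.11 CPM in CA-AAK-2 and 2.97 to 3.83 CPM in the double strain, and rose only in CA-CRTC-1 (0.69 ± 0.15, limma adjusted p = 0.00343). mod-5, the serotonin transporter, had 1.11 to 1.34 CPM in N2, 1.86 to 2.69 CPM in CA-CRTC-1, 1.82 to 2.37 CPM in CA-AAK-2 and 1.78 to 3.05 CPM in the double strain, all 3 transgenic strains lying above N2, and rose in the double strain (0.73 ± 0.17, adjusted p = 0.0026). The vesicular glutamate transporter eat-4 lay at 3.39 to 3.83 CPM in N2 and 2.12 to 3.73 CPM in the double strain, which overlapped.

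Adding CA-CRTC-1 to active AAK-2, the double strain against CA-AAK-2, gave 5 members called higher of 29 tested and 0 lower, where 11.3% of all genes were called, 7.66% higher and 3.63% lower (6.66% and 4.4% with median-ratio scaling). ida-1 (0.71 ± 0.08, limma adjusted p = 5.13e-06), snf-11 (0.67 ± 0.13, adjusted p = 0.0011), ric-19 (0.63 ± 0.15, adjusted p = 0.00469), egl-3 (0.62 ± 0.08, adjusted p = 3.07e-05) and aex-3 (0.60 ± 0.10, adjusted p = 0.000232) rose. Next came unc-10 (0.52 ± 0.10), egl-21 (0.51 ± 0.08) and dgk-1 (0.49 ± 0.10), none at 1.5-fold. The median of the members was 0.18 against 0.02 for all genes tested, and 24 of 29 (82.8%) were above 0 against 52.5% of all genes. With no fold threshold and an adjusted p of at most 0.05, 12 were higher and 1 lower (egl-30), where 19.3% of all genes were higher and 16.1% lower, 35.3% together. The libraries lay wholly above CA-AAK-2 for 14 members and wholly below for 1, against 22.6% and 19.5% of all genes. This comparison and the one with N2 share the double strain libraries. Only the call of ida-1 held in all 17 settings run: aex-3 and egl-3 dropped under 1.5-fold with median-ratio scaling (0.55 and 0.57) and with edgeR (0.57 and 0.58), snf-11 without replicate 2 of CA-AAK-2 (0.53), and ric-19 had adjusted p of 0.0111 to 0.0233 when any library of these strains but replicate 3 of CA-AAK-2 was left out. Without replicate 1 of CA-AAK-2, 3 members were called, without its replicate 2 there were 2, and without replicate 3 of the double strain there were 2.

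Adding CA-AAK-2 to CA-CRTC-1 animals, the double strain against CA-CRTC-1, gave 1 member called higher of 30 tested and 0 lower, where 8.85% of all genes were called, 4.68% higher and 4.17% lower (3.59% and 5.44%, 9.03% together, with median-ratio scaling). The gene was ric-19 (0.72 ± 0.15, limma adjusted p = 0.00217), at 0.56 and an adjusted p of 0.0126 without replicate 1 of CA-CRTC-1, its lowest library. With a mean of 4.92 CPM in CA-CRTC-1, just under 5 CPM, ric-19 passed the filter here through the double strain. The largest differences not called were those of unc-104 (-0.48 ± 0.10, adjusted p = 0.0017), snf-11 (0.48 ± 0.13, adjusted p = 0.0103) and rgef-1 (-0.43 ± 0.13, adjusted p = 0.019). At 4.19 CPM in the double strain, rgef-1 passed the filter only through CA-CRTC-1, where it averaged 5.83 CPM. It is counted among the lower members below. snf-11 was called without replicate 3 of CA-CRTC-1 (0.59, adjusted p = 0.0051). As crtc-1 RNA was higher in the double strain than in CA-CRTC-1, added CA-AAK-2 and more crtc-1 RNA cannot be told apart here. The median of the members was -0.08 and that of all genes 0.07. With no fold threshold and an adjusted p of at most 0.05, 7 were higher and 5 lower (egl-8, unc-104, rgef-1, unc-17 with cha-1, and unc-13), where 24.1% of all genes were higher and 15% lower, 39.2% together. The libraries lay wholly above CA-CRTC-1 for 7 members and wholly below for 9, against 31.6% and 18.3% of all genes. Among members under the filter, where 5.45% of all genes were called higher and 4.1% lower with no filter, cho-1 was lower in the double strain (-0.73 ± 0.15, adjusted p = 0.00208 with no filter on level) and osm-6 higher (0.76 ± 0.20, adjusted p = 0.00807), the latter at 0.84 to 1.31 CPM against 0.33 to 0.62 CPM.

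The interaction asks whether CA-CRTC-1 changed a gene by the same amount with and without CA-AAK-2. The crtc-1 RNA itself was not at 1 level, with 177 to 207 CPM in CA-CRTC-1 and 350 to 379 CPM in the double strain. The presence of CA-AAK-2 and the higher crtc-1 RNA cannot be told apart in this term. Of 29 members tested, 0 were called by limma, 7 had an unadjusted p under 0.05 and 2 were called by edgeR on the recovered reads, where limma called 8.73% of all genes, 3.91% higher and 4.82% lower, and edgeR 9.05%. With no fold threshold and an adjusted p of at most 0.05, ric-19 and aex-3 were higher and unc-13 lower, where 8.75% of all genes were higher and 12% lower, 20.7% together. The median of the members was 0.08 and that of all genes -0.08. The largest terms were ric-19 (0.79 ± 0.21, adjusted p = 0.0175), aex-3 (0.54 ± 0.14, adjusted p = 0.0123) and unc-13 (-0.46 ± 0.12, adjusted p = 0.0172). For the members that rose in the double strain the terms were 0.38 ± 0.18 for snf-11 (95% interval -0.01 to 0.78), 0.15 ± 0.11 for ida-1 (95% interval -0.07 to 0.38), 0.20 ± 0.11 for egl-3 (-0.04 to 0.44) and 0.14 ± 0.12 for egl-21 (-0.11 to 0.39). ric-19 was called without replicate 3 of CA-AAK-2 (0.93) and aex-3 without replicate 3 of CA-CRTC-1 (0.62). Outside the set, 3 of the 16 further dense-core vesicle genes had a lower term: the furin-like convertase kpc-1 (-0.71 ± 0.11, adjusted p = 0.000319), cpd-1 (-0.81 ± 0.18, adjusted p = 0.00648) and pamn-1 (-0.61 ± 0.14, adjusted p = 0.00717). The call of kpc-1 held in 21 of 21 settings, that of cpd-1 in 10 and that of pamn-1 in 6.

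The 6 genes called in at least 1 comparison are spread over the genome. In WBcel235, ida-1 (WBGene00002048) lies on chromosome III at 5755539 to 5765816, egl-21 (WBGene00001189) on IV at 10478442 to 10481844, ric-19 (WBGene00004368) on I at 3778089 to 3781690 and aex-3 (WBGene00000086) on X at 751203 to 759734. egl-3 (WBGene00001172), at 10169177 to 10173753, and snf-11 (WBGene00004910), at 11305070 to 11308446, are both on V. Across members, longer genes tended to have lower differences from N2 in the double strain (Spearman -0.464 over 29 genes that share libraries, as a description), while over 10487 genes with a known exon length the value was 0.0934.

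Few receptors and channels outside the set were called, where 8.79%, 12.6% and 22.5% of all genes tested were called in the 3 transgenic strains. Receptors and esterases of acetylcholine and GABA gave 0 calls in the 3 comparisons with N2 (18 tested in each), with medians of 0.01, -0.10 and -0.15. Other neuronal ion channels gave 0 of 21, 0 of 20 and 1 of 21 calls, the last being the innexin inx-7 (0.77 ± 0.10). Other G-protein and second messenger genes gave 1 of 29, 0 of 28 and 1 of 29 higher, in both cases the calmodulin-dependent kinase cmk-1, which went from 3.93 CPM in N2 to 7.03 CPM in CA-CRTC-1 and 7.22 CPM in the double strain. With N2 under 5 CPM, cmk-1 passed the filter in each of these comparisons only through the strain where it was high. Neuronal transcription factors gave 0 of 10, 0 of 9 and 1 of 9, the corepressor unc-37 (0.64 ± 0.08 in the double strain), whose call was lost with median-ratio scaling.

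Other classes outside the set held more calls than the receptors, channels, G-protein genes and transcription factors above. Of all genes tested, 8.79%, 12.6% and 22.5% were called in either direction in the 3 strains. Glutamate genes were above this share in CA-CRTC-1 and CA-AAK-2, and monoamine genes in CA-AAK-2 and the double strain. Cilium genes were above it only in the double strain, and cytoskeleton and axon genes in none. For glutamate genes in CA-CRTC-1 this did not hold with median-ratio scaling. The call of mgl-2 was lost there, which left 1 call, where 8.81% of all genes were called. mgl-2 also overlaps its neighbour maf-1 by 554 bases of exon. Glutamate receptors and transporters gave 2 higher of 15 tested in CA-CRTC-1, among them the chloride channel subunit glc-4 (0.79 ± 0.14), 3 lower of 13 in CA-AAK-2, among them the transporter glt-5 (-0.82 ± 0.11), and 1 higher and 1 lower of 15 in the double strain (glc-1, 0.83 ± 0.12, and glt-3, -0.61 ± 0.11). Monoamine genes gave 0 of 9 in CA-CRTC-1, 1 higher (tdc-1, 0.90 ± 0.13) and 1 lower (the amine oxidase homologue amx-2, -1.04 ± 0.10) of 9 in CA-AAK-2, and 3 higher and 1 lower of 9 in the double strain, where 15.6% of all genes were higher and 6.87% lower. The double strain had rises of the tyrosine decarboxylase tdc-1 (1.28 ± 0.13), the biopterin synthesis enzyme cat-4 (0.89 ± 0.13) and the octopamine receptor ser-3 (0.63 ± 0.11) and a fall of the aromatic amino acid decarboxylase bas-1 (-0.83 ± 0.11). The call of ser-3 was lost with a pseudocount of 2, median-ratio scaling and edgeR. tdc-1 and cat-4 were called in all 16 settings but varied widely in the double strain, at 58.1 ± 14.8 and 46.2 ± 11.9 CPM (mean ± SD). Genes of the neuronal cytoskeleton and axon gave 2 higher and 1 lower of 38 in CA-CRTC-1, led by the cell adhesion gene ncam-1 (1.35 ± 0.11), and 1 higher and 1 lower of 37 in CA-AAK-2, the ephrin receptor vab-1 (0.68 ± 0.07) and the tubulin tbb-6 (-1.97 ± 0.13). In the double strain 4 were higher and 1 lower of 37, among them ncam-1 (1.115 ± 0.11), vab-1 (0.85 ± 0.07), the kinase dlk-1 (0.84 ± 0.11) and zig-3 (-2.15 ± 0.22). Cilium genes gave 0 of 7, 1 higher of 8 and 3 higher of 9 in the 3 strains. Among them, dyf-3 lay at 3.22 CPM in N2, 2.79 CPM in CA-CRTC-1 and 5.47 CPM in CA-AAK-2. It was higher by 1.86 ± 0.14 in the double strain than in N2. As N2 was under 5 CPM, dyf-3 passed the filter in that comparison only through the double strain, where it was high.

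Some markers of other tissues were called too, and their part in the values above was not tested. Over all genes tested, 6.62%, 8.2% and 15.6% were called higher in the 3 strains and 2.17%, 4.4% and 6.87% lower. Hypodermis markers were called higher for 6 of 14, 9 of 14 and 8 of 15 in the 3 strains and lower for 1 in CA-AAK-2, with a summed level of 2118 to 2258 CPM in N2, 3430 to 3678 CPM in CA-CRTC-1, 3278 to 3598 CPM in CA-AAK-2 and 2815 to 4068 CPM in the double strain. Germline markers were called higher for 2, 4 and 5 of 18, and their summed levels were 3023 to 3168, 3078 to 3137, 3301 to 3721 and 3379 to 3763 CPM. Pharyngeal muscle markers were lower for 4 of 8 in CA-AAK-2, at 489 to 563 CPM in sum against 747 to 846 CPM in N2, 888 to 932 CPM in CA-CRTC-1 and 709 to 816 CPM in the double strain. Body-wall muscle markers were lower for 3 of 16 in the double strain. Intestine markers were higher for 3 and lower for 4 of 14 there, and glia and coelomocyte markers were higher for 1 of 5. The intestine, glia and coelomocyte markers called higher there are close to the share of all genes. No measured marker of these lists was at 0.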

How the data were processed

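Polyadenylated RNA of 12 whole-animal samples was sequenced. Per the submitters' processing notes, the authors used CASAVA 1.8.2, cutadapt, TopHat2 2.0.8 and HTSeq and normalised with edgeR, and the deposited values are CPM. Genes under 1 CPM were discarded per the series text, yet 743 deposited genes have a mean under 1 CPM. The kit keeps no strand. The series text names ce6 and WS238 together, so coordinates, lengths and overlaps come from Ensembl WBcel235.

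Values were whole multiples of 1 read for 100% of entries (within 0.02 reads), but replicate 2 of CA-CRTC-1 and replicate 3 of the double strain hold few values low enough to check the size of 1 read. limma 3.58.1 (R 4.3.3, trended prior) was fitted to log2(CPM + 0.5) in all 12 samples for genes of at least 1 CPM, and p-values were adjusted over genes of at least 5 CPM in the samples compared. Thresholds follow the series text. The limma test was checked on counts simulated for CA-CRTC-1 against N2 only, with changes larger than the 1.5-fold threshold. That check does not cover the interaction or changes near the threshold. Every called member was named, with the 3 largest differences not called and up to 4 called genes of each other list. Members, lists and tests were chosen with earlier results of these data known. The 16 other lists hold 445 genes, 62 of them not analysed here.

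Alternatives were pseudocounts of 0.1 and 2, filters of 1 CPM or none, median-ratio and equal-total scaling, other fits, edgeR 4.0.16 on the recovered reads, and each library left out. The reported fits treat no replicates as paired. A block for replicate number was used only among the alternatives, including a fit of CA-AAK-2 and the double strain alone. For these strains the deviations of same-numbered samples correlated at 0.252, 0.313 and 0.275. That pairing comes from the data, not the design, and no other pair of strains had every such correlation above 0.1.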

Additional observations from a re-analysis of the deposited data

How the results depend on the processing

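Each count of members called was within 1.5 times its reported value, and each median within the spread between replicates, under the alternatives not listed here. Against N2, the count in CA-CRTC-1 was 1 with a filter of 1 CPM or none (cho-1), and in the double strain 2 with median-ratio scaling or edgeR (ida-1 and snf-11). For the double strain against CA-AAK-2 it was 3 with a pseudocount of 2, median-ratio scaling or edgeR and 2 to 5 with a library left out. Against CA-CRTC-1 it was 0 with a pseudocount of 2 (ric-19 at 0.58), 2 with a filter of 1 CPM, 3 with none and 0 to 2 with a library left out. The interaction gave 2 with median-ratio scaling or edgeR (ric-19 and aex-3) and 0 to 1 with a library left out. At an adjusted p of 0.05 and no fold threshold the counts were 5, 8, 14, 13, 12 and 3 in the order of the report. The cause of these changes was not tested beyond their construction.

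The median of the members became 0.0325 (median ratio), 0.0438 (edgeR), 0.19 (filter of 1 CPM) and 0.0434 to 0.20 with a library left out in CA-CRTC-1, -0.23 (median ratio and edgeR), -0.0803 (filter of 1 CPM) and -0.14 to -0.075 in CA-AAK-2, and -0.15 (median ratio) and -0.13 (edgeR) in the double strain, where it changed sign. With replicate number as a block, 0, 0, 4, 5, 1 and 0 members were called, and the block changed no call of a named member. The lowest members had as few as 13 reads in a library, which limits them to large differences.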
